A study of Mus musculus with 35 samples.

Results

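Open chromatin of hepatocyte nuclei was compared between mice bearing MC38 tumors, which left body weight stable, and mice given PBS. The comparison used 8 of the 35 libraries of the series, 4 of tumor bearers and 4 of controls, chosen by their labels, and all 177904 deposited regions. MC38 is a colon adenocarcinoma line of C57BL/6 mice. Every animal of the series, controls included, carried CAG-Sun1/sfGFP with Albumin-Cre, so hepatocytes, the cells that express albumin, had a GFP tag on the nuclear envelope. These nuclei were captured on beads (INTACT) and transposed for ATAC-seq, in which a transposase cuts DNA that is not packed in nucleosomes. The 8 mice were C57BL/6N with livers taken at zeitgeber time 9, and the labels state no ages. The other cohorts were 8025 (C57BL/6N, PBS or cachexia, 7 libraries), NC26 (BALB/c, PBS or weight-stable tumor, 8 libraries) and C26 (BALB/c, PBS, pre-cachexia or cachexia). Cachexia groups were collected after more than 10% weight loss. Separate animal numbers mark all libraries.

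As background, hepatocytes answer inflammatory cytokines with the acute phase response, in which STAT3, NF-kB, AP-1 and C/EBP factors bind promoters and distal enhancers of plasma protein genes. Tumors can raise such cytokines in blood, and cachexia models are known for a strong acute phase response in liver. ATAC-seq reads how accessible these sites are, not how much RNA their genes make. A lower value may mean fewer nuclei with the site open or fewer cuts per nucleus, and the 2 cannot be told apart here.

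The 4 tumor libraries held 15.2 to 20.3 M tags (M for mega; read pairs, each end counted as 0.5) and the 4 PBS libraries 11.3 to 15.8 M. Of these, 47.1 to 56.7% lay in the listed regions with tumor and 38.6 to 62.9% with PBS. Promoter regions took 34.7% ± 1.49 (SD, n = 4) of region tags with tumor and 35.7% ± 0.285 with PBS, where tumor libraries 2 and 4 were lowest at 33.2% and 33.6%. None of these measures, nor the number of regions with a listed peak, differed beyond the spread between animals (exact permutation tests, two-sided, adjusted p over 4 measures 0.648 to 0.943, smallest possible unadjusted p 0.0286). Libraries of different groups were about as alike as libraries of one group. Spearman correlations across regions were 0.874 to 0.933 between groups, 0.882 to 0.936 within PBS and 0.899 to 0.933 within tumor. The albumin promoter (Alb) held 287 to 358 scaled tags in all 8 libraries. In the macrophage marker list, Ptprc, Csf1r, Cd68, Clec4f and Lyz2 had no listed region within 1 kb of their start. The 1 of 14 genes of that list that had one summed to 1.19 to 8.74 with PBS and 1.36 to 5.65 with tumor. Promoters of neutrophil, endothelial, stellate and cholangiocyte genes also overlapped between groups, with sums of 32.4 to 52.7 against 43.1 to 55.0, 28.8 to 43.2 against 30.3 to 35.5, 89.1 to 98.5 against 64.8 to 125, and 137 to 178 against 120 to 157, PBS first. None of the 11 lymphocyte markers had a promoter region.

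A small set of mostly distal sites was more open in hepatocytes of MC38 tumor bearers. In the limma test 32 regions rose and 1 fell of 177251 tested, which is 0.0181% and 0.000564% (limma with Benjamini-Hochberg adjustment, threshold 0.05). At an unadjusted p of 0.05, 4.02% of regions were higher and 2.31% lower. The median log2 change over all regions was 0.001. Here and below a value is tags in a 400 bp window per 10 M tags, divided by the library's TMM factor, and a change is a difference of log2(value + 1), which understates changes of low regions. The 32 windows formed 29 that did not overlap and lay nearest to 25 genes. Of them 20 were intergenic and 10 intronic, against 33.7% and 46.3% of all tested regions, and 1 was a promoter, against 12.2%. Their median distance to a start site was 32.3 kb, against 15 kb for all regions. The rises ran from 0.74 to 2.73 with a median of 1.48, from a median level of 11.3 scaled tags with PBS to 35.4 with tumor. In 26 of the 32 every tumor library stood above every PBS library, which held for 1.85% of all regions. Since these regions were called on the same values, that count describes them only. No peak was listed in any of the 8 libraries at Serpina3n, Ptpn1, Lnx1, Ablim1 and 1 window each of Prune1 and 1700012H19Rik. The overlapping window of Prune1 and that of 1700012H19Rik had listed peaks.

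The count of calls rested on few animals. It was 9 without tumor library 2, 8 without tumor library 4, 19 without tumor library 3, 15 and 18 without PBS libraries 2 and 4, 57 without PBS library 1, 63 without tumor library 1 and 53 without NC26 tumor library 1. With the promoter share of each library as a covariate 11 regions rose, and with the 8 libraries fitted alone 11 rose. DESeq2 called 222 higher and 29 lower, among them 32 of the 33. All 33 kept their direction under every alternative, and 4 were called under each omission of 1 of the 8 libraries: both windows in Prune1, the Mir1839 window at chr7:81541082-81541482 and the nearer Nampt window.

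Prune1, which encodes a phosphatase of the exopolyphosphatase family, held the call with the lowest p. Its window lies in an intron, 13.9 kb from the start (chr3:95267959-95268359; mm10 here and below). Scaled tags were 29.7, 9.29, 13.8 and 15.2 with PBS and 40.1, 63.5, 74.0 and 57.9 with tumor. All tumor libraries were above all PBS libraries. The log2 change was 1.82 ± 0.24 (SE, adjusted p = 0.00036, limma), and a second window that shares part of its sequence rose by 1.73 ± 0.24. The promoter of Prune1 differed by -0.07 ± 0.10 and did not pass.

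Far upstream of Nampt, the rate-limiting enzyme of NAD salvage, 2 regions on chromosome 12 rose. The region at 131 kb (chr12:32689243-32689643) had 4.16, 6.56, 8.97 and 8.33 scaled tags with PBS and 18.7, 20.6, 28.6 and 36.5 with tumor. All tumor libraries were above all controls, and the region rose by 1.76 ± 0.27 (SE, adjusted p = 0.0021, limma). The region at 141 kb (chr12:32678774-32679174) was already open in controls, at 44.3, 60.1, 61.5 and 74.4, and stood at 101, 118, 107 and 112 with tumor. Its change was 0.88 ± 0.16 (adjusted p = 0.025). Within 50 kb of this pair all 18 other windows were above 0, with a median of 0.56, and 11 had an unadjusted p under 0.05. The Nampt promoter itself, at 465 to 494 with PBS and 418 to 486 with tumor, differed by -0.08 ± 0.07.

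A pair of overlapping windows labelled Mir1839, in an intron of Fsd2 (chr7:81541082-81541482 and chr7:81540961-81541361), rose by 1.85 ± 0.27 and 1.88 ± 0.30 (SE, adjusted p = 0.00087 and 0.0035, limma). Values at the first were 9.37, 9.83, 23.7 and 11.3 with PBS and 60.5, 21, 47.8 and 85.3 with tumor. Tumor library 2 fell below PBS library 3, so the groups overlapped. At 3 sites upstream of Clvs1, a lipid-binding protein of the clavesin family, the changes were 1.30, 1.65 and 1.20. The site at 152 kb, where the groups did not overlap, had 18.7, 8.74, 16.7 and 14.3 with PBS and 29.2, 26.7, 34.5 and 47.5 with tumor.

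Further rises were nearest to Hmgcs1, Abcg1, Ugdh and Gpat3. A window nearest to Hmgcs1, the synthase that feeds cholesterol synthesis, lies in an intron of its neighbour Nim1k (chr13:119713155-119713555) and had 9.37, 3.27, 5.13 and 7.74 scaled tags with PBS and 17, 19.4, 17.8 and 25 with tumor. It rose by 1.56 ± 0.26 (SE, adjusted p = 0.0079, limma). Near Abcg1, a cholesterol exporter, a window 19.1 kb upstream (chr17:31038417-31038817) had 5.98, 19.7, 12.2 and 20.2 with PBS and 34.3, 65.1, 64.4 and 52.9 with tumor. The change was 1.92 ± 0.33 (adjusted p = 0.01), and tumor library 1 was the lowest of its group. A window nearest to Ugdh, which makes the sugar donor for glucuronidation, lies in an intron of Smim14 (chr5:65454693-65455093) and rose by 1.96 ± 0.37 from 4.16 ± 3.50 (SD, n = 4) to 16.4 ± 5.21. Downstream of the start of Gpat3, an acyltransferase of triglyceride synthesis, a region of 24 to 33.8 with PBS and 29.9 to 65.7 with tumor rose by 0.74 ± 0.15, with overlapping groups. The Gpat3 promoter stood at 15.8 to 29.7 with PBS and 32.7 to 51.3 with tumor and did not pass (0.78 ± 0.18, adjusted p = 0.11).

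In the acute phase group, 2 of 386 regions within 100 kb of 28 genes rose and none fell, against 0.0181% and 0.000564% of all regions. A region 8.47 kb upstream of Apcs, which encodes serum amyloid P (chr1:172903325-172903725), had 32.5, 38.3, 38.4 and 32.1 scaled tags with PBS and 66.0, 80.7, 51.1 and 72.2 with tumor. It was open in every control and rose by 0.90 ± 0.16 (SE, adjusted p = 0.019, limma). A region 7.64 kb upstream of Serpina3n, an acute phase protease inhibitor (chr12:104398871-104399271), was low in controls at 1.56, 1.64, 1.93 and 2.09 and reached 11.9, 3.16, 6.41 and 8.02 with tumor. Its change was 1.47 ± 0.29 (adjusted p = 0.048), with no peak listed in any of the 8 libraries. With 1 of the 8 libraries left out in turn, the Apcs call was kept in 4 fits and the Serpina3n call in 1. The Serpina3 genes are a family of near copies, so reads may be shared between them. A region in the same cluster, at the end of Serpina5, is labelled Serpina3a and is not counted in the acute phase group. It rose from 57.7 to 75.9 with PBS to 119 to 136 with tumor (0.91 ± 0.17). In 8025 and C26 cachexia it changed by 0.14 ± 0.19 and -0.37 ± 0.17. Of its 34 other windows within 50 kb, 32 were above 0, with a median of 0.72. The region nearest to A2m had 21.9 to 35.7 with PBS and 43.5 to 63.4 with tumor and did not pass (0.69 ± 0.17, adjusted p = 0.15).

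Igf1, Ptpn1, Foxp4, Myadm, Cobl, Iqsec1, Lnx1 and Ablim1 were the nearest genes of other rises. Upstream of Igf1, the growth factor that mediates growth hormone action, a window at 141 kb (chr10:87717118-87717518) had 6.77, 2.18, 7.68 and 7.74 scaled tags with PBS and 12.9, 23.1, 18.5 and 16.6 with tumor (1.49 ± 0.29, SE, adjusted p = 0.038, limma). All 11 other windows within 50 kb were above 0. A window 100 kb upstream of Ptpn1, a phosphatase that acts on the insulin receptor (chr2:167831688-167832088), had 8.85, 5.47, 14.7 and 13.7 with PBS and 24.1, 28.9, 20.7 and 46.1 with tumor (1.43 ± 0.28). At Foxp4, a forkhead transcription factor, 2 upstream regions rose by 1.22 and 1.56, and the second had 6.56 to 11.2 with PBS and 23.5 to 40.4 with tumor. Upstream of Myadm, a MARVEL-domain membrane protein, a window 1.25 kb from the start rose by 1.69, from 5.73, 6.56, 16.7 and 18.5 to 32.6, 39.6, 33.1 and 39.8. At Cobl, an actin nucleator, values of 3.12 to 6.55 became 8.50 to 32.1 (1.71 ± 0.33). In an intron of Iqsec1, an exchange factor for ARF GTPases, values of 7.05 to 13 became 17.3 to 28.9 (1.26 ± 0.24). In introns of Lnx1, a ubiquitin ligase, and Ablim1, an actin-binding protein, the changes were 1.15 ± 0.23 and 1.64 ± 0.32.

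Outside promoters, the remaining rises were labelled 1700012H19Rik, Gm19510, Mir3099, Adgrl2 and 4930554C24Rik. Overlapping windows labelled 1700012H19Rik, 223 kb from Sox9, rose by 1.30 and 0.96, with 10.9 to 19.3 scaled tags against 32.3 to 43.9 at the first. A region labelled Gm19510, 71.0 kb from Trib1, a pseudokinase that restrains hepatic lipogenesis, lies at chr15:59728126-59728526 and had 7.81, 9.83, 7.05 and 4.16 with PBS and 24.8, 19.4, 19.2 and 21.1 with tumor (1.47 ± 0.27, SE, adjusted p = 0.025, limma). The window labelled Mir3099, in an intron of Usp29, rose by 1.47 ± 0.27 and that of Adgrl2, 706 kb from the gene, by 0.99 ± 0.18. At 4930554C24Rik the values were 1.04, 0.00, 0.639 and 1.79 with PBS and 5.44, 7.91, 10.9 and 9.51 with tumor. The fitted rise there, 2.40 ± 0.46, depends on the pseudocount.

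The single fall was in an exon of Tnks1bp1, a tankyrase-binding protein (chr2:85063343-85063743). A peak was listed at this window in 2 of all 35 libraries and in none of the 8 compared here. Values were 14.1, 12.6, 12.2 and 12.5 with PBS and 6.46, 7.91, 3.46 and 3.56 with tumor. All tumor libraries lay below all controls, as in 1.62% of all regions, and the change was -1.19 ± 0.21 (SE, adjusted p = 0.02, limma). The call was lost without any one of PBS libraries 3 and 4 and tumor libraries 3 and 4. No other region of lower signal passed. Among the next by p were an intron of Cyp2c67, a cytochrome P450, with 54.7, 63.4, 58.6 and 58.6 against 38.4, 31.4, 30.1 and 29.4 (-0.85 ± 0.18, adjusted p = 0.069), and regions nearest to Ap1s3 (-1.10), Sh3pxd2a (-0.73) and Hyi (-0.72). Cyp2c67 belongs to a family of close copies. It was called with array weights, with a pseudocount of 5, with the replicate number as a block, without NC26 tumor library 1 and by DESeq2.

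**Figure D1:**
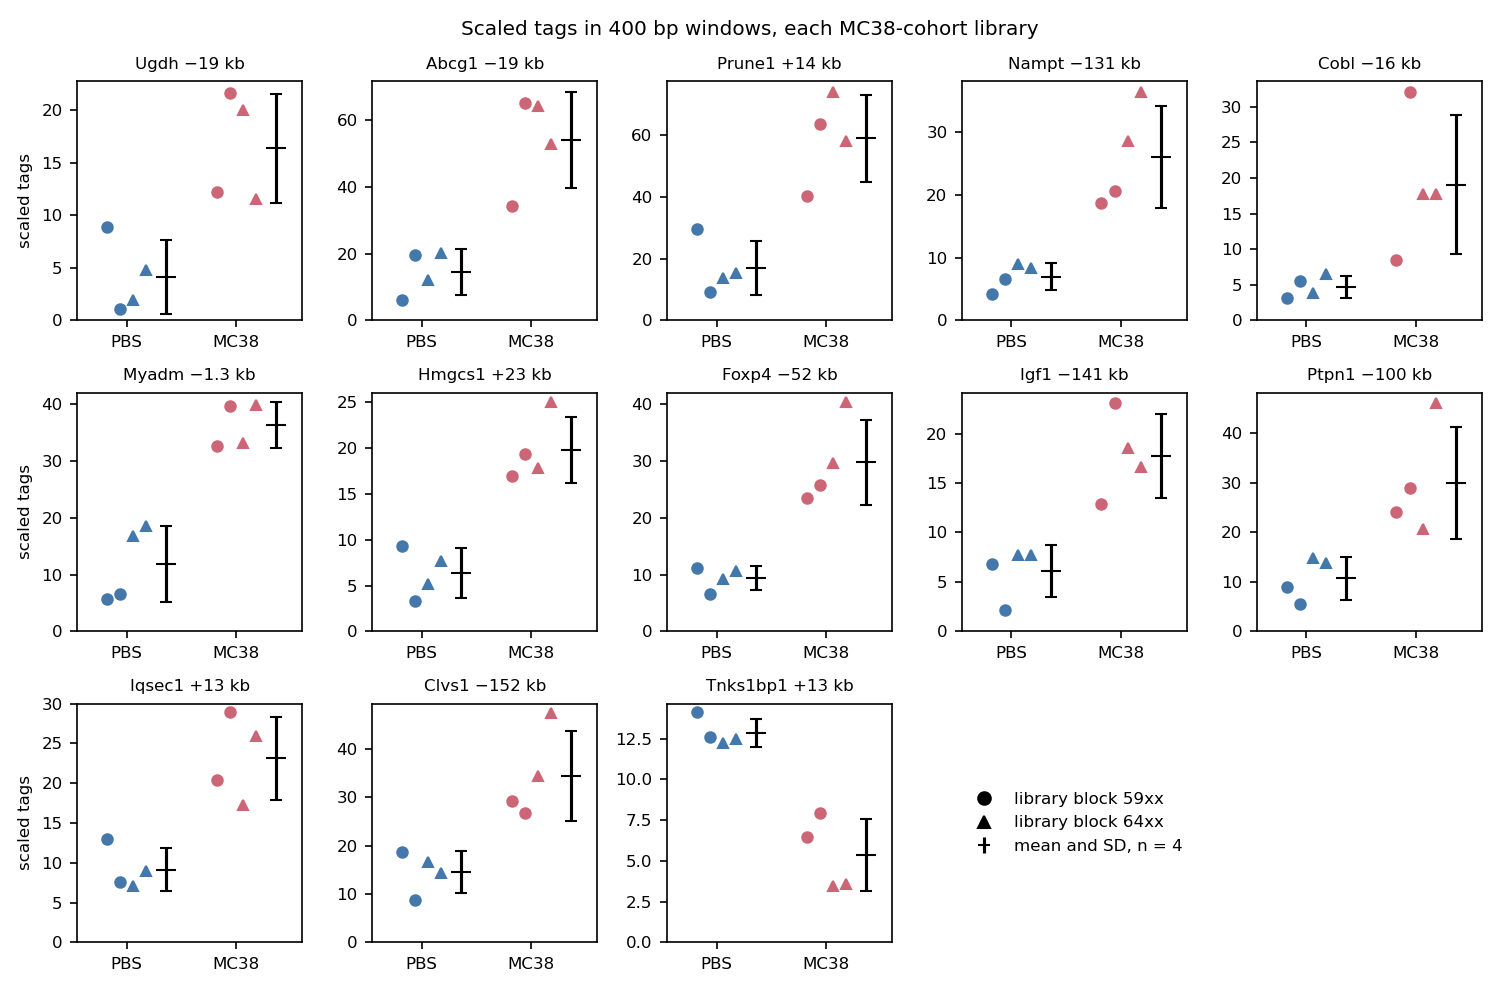
Scaled tags (tags in 400 bp per 10 M tags, TMM-scaled, linear axis from 0) of each PBS and MC38 tumor library at the 12 rises and the 1 fall picked by the naming rule, with mean and SD (n = 4) and marker shape for the library number block. In each panel the 4 tumor libraries stand apart from the 4 controls, which the rule required, and the height of single animals varies, as at Cobl from 8.50 to 32.1.

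Windows around the called ones leaned the same way. Within 50 kb of the 25 loci, leaving out windows that overlap a called one, 364 of 475 windows (76.6%) were above 0, against 50.2% of all regions. Their median was 0.24. At an unadjusted p under 0.05, 100 were higher (21.1%, against 4.02% of all regions) and 4 lower. At Mir1839 the median of the neighbours was -0.05. Promoters of the genes nearest to or hosting the called regions were read as well. Of 26 with a region within 1 kb, only that of Zfp932 was called. Counting Zfp932, which is itself a called region, 6 had an unadjusted p under 0.05 (6.32% of all regions did). In the promoter class 1.54% of regions were higher and 3.20% lower at that p. The promoters other than Zfp932 ranged from -0.18 to 0.78 with Gpat3 highest. The Apcs promoter differed by 0.51 ± 0.16 and that of Myadm by 0.30 ± 0.12, both short of the threshold (adjusted p 0.46 and 0.64, limma).

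By region class, medians were near 0 but not equal. Promoters had a median log2 change of -0.046, with 1.54% higher and 3.20% lower at an unadjusted p under 0.05, and intergenic regions 0.036, with 5.25% and 1.91%. The lower promoter share of tags in tumor libraries 2 and 4, given above, moves with this difference, and its part in it was not tested.

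Zfp932, a zinc finger gene of the KRAB family, had the only called promoter. It was listed at 0 in PBS libraries 1, 2 and 3, at 9.53 in PBS library 4 and at 14.3, 11.1, 6.91 and 12.8 with tumor. Counting 3 read ends as the floor, a value of 0 allows up to 0.781, 1.64 and 0.961 scaled tags in those 3 libraries, counting error only. PBS library 4 lay within the tumor range. The fitted change of 2.73 ± 0.50 (SE, adjusted p = 0.045, limma) depends on the pseudocount: it was 3.43 with 0.5 and 1.29 with 5, and edgeR did not call it (adjusted p = 0.37). Among the 31 libraries outside MC38 PBS the values ran from 1.65, in 8025 cachexia library 4, to 25.2, and the second lowest was 6.91. Zinc finger genes of this family occur in near-identical copies, so its count is uncertain. The promoter shares 276 bases with the deposited window (RefSeq, GRCm38.p6, chromosome 5, 109996277 to 109996576, plus strand) and held none of the 4 motifs searched, which are spelled out after the next promoters.

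Zfp932: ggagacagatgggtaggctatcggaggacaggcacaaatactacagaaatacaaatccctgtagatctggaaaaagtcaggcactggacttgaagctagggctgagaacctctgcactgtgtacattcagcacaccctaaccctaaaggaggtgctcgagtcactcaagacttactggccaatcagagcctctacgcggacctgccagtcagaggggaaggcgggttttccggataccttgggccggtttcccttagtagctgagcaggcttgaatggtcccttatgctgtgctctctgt

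**Figure D2:**
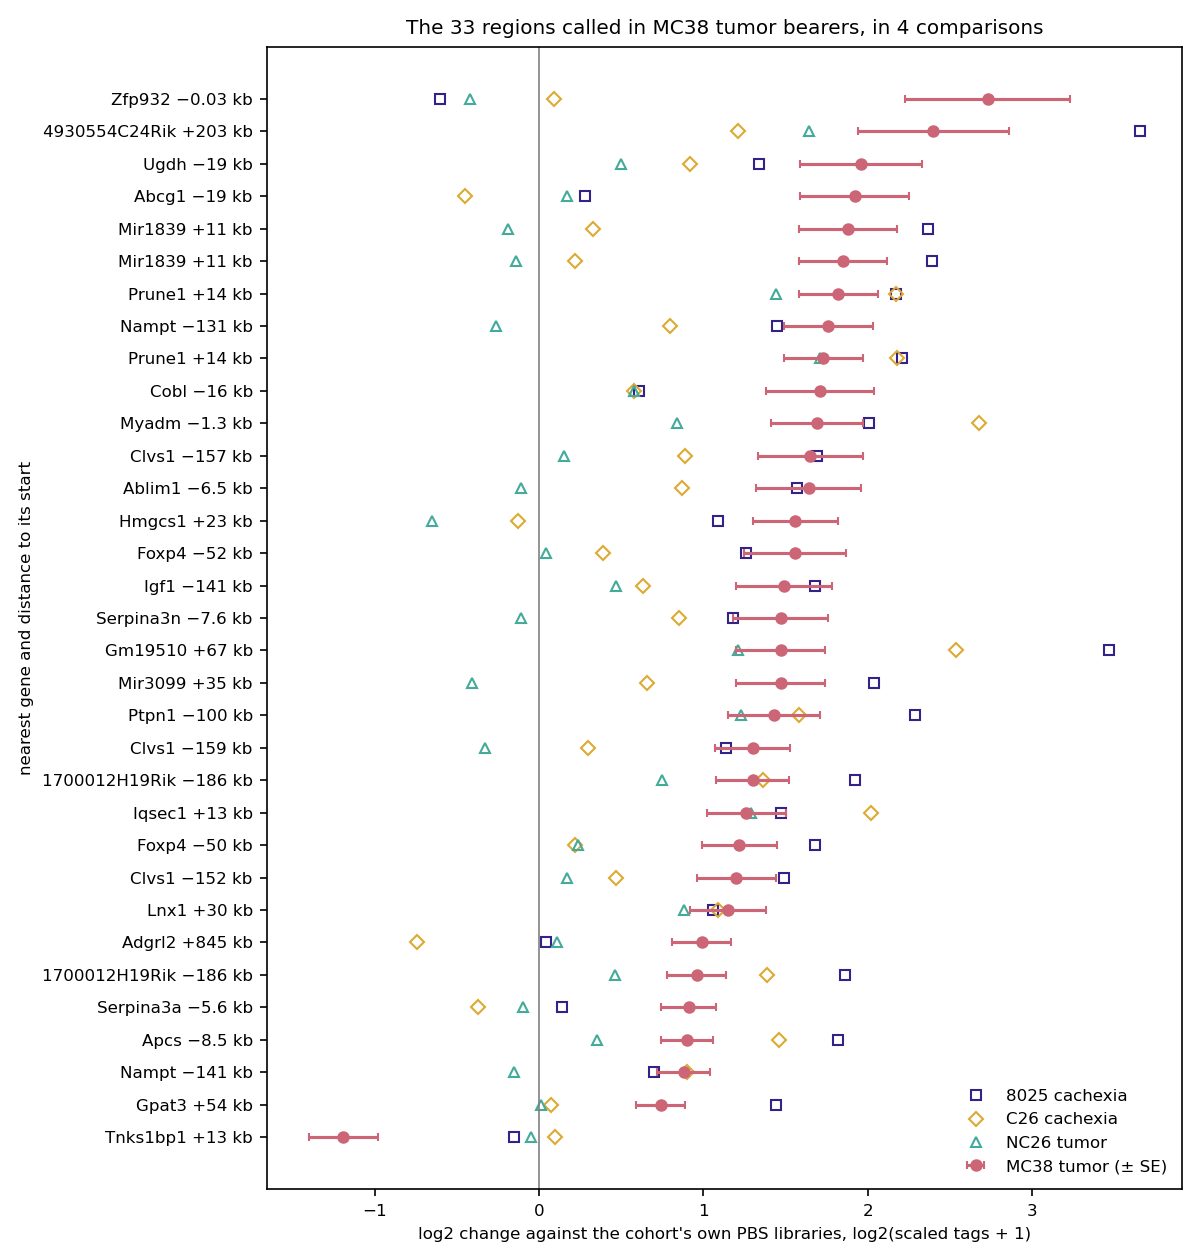
Log2 change of the 33 called regions (rows, nearest gene and distance to its start) in MC38 tumor with its SE, and in 8025 cachexia, C26 cachexia and NC26 tumor, each against its own PBS libraries. MC38 values were the basis of the choice, 27 of the 32 rises were also called in 8025 cachexia, and Abcg1 (0.28), Serpina3a (0.14), Adgrl2 (0.04) and Zfp932 (-0.60) lie lowest there.

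The same sites were read in the other cohorts, which have their own controls. Of the 32 rises, 27 were called higher in 8025 cachexia, where 6.99% of all regions were called higher, and 31 had a change above 0 (median 1.53, range -0.60 to 3.66). In C26 cachexia 13 were called higher (all regions 6.91%) and 1, near Adgrl2, lower (7.13%). In C26 pre-cachexia 9 were called higher (0.97%), and in the other weight-stable tumor, NC26, 5 (0.146%): both Prune1 windows, Gm19510, Iqsec1 and Ptpn1. Changes above 0 numbered 28 of the 32 in C26 cachexia (median 0.82), 21 in pre-cachexia (median 0.28) and 21 in NC26 (median 0.17). At Prune1 the changes were 2.17 in 8025, 2.17 in C26 cachexia, 1.49 in pre-cachexia and 1.44 in NC26, beside 1.82 with MC38. The Nampt region at 131 kb changed by 1.45 in 8025 and had -0.26 ± 0.27 (SE) in NC26. The 5 not called in 8025 were Abcg1 (0.28 ± 0.35), Adgrl2 (0.04 ± 0.20), Serpina3a (0.14 ± 0.19), Cobl (0.61 ± 0.36) and Zfp932 (-0.60 ± 0.54).

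Whether the effects differ between cohorts was tested directly. The 8025 cachexia effect exceeded the MC38 effect at 1635 of 177251 regions (0.922%) and fell short of it at 1380 (0.779%, limma, adjusted p under 0.05). All 8025 libraries are in 1 library number block, 64xx. Among the 33 called regions 3 differed (1.7% of all regions did in either direction): Gm19510 with a larger change in 8025 (difference 2.0 ± 0.40, SE, adjusted p = 0.0043), Apcs likewise (0.92 ± 0.24, adjusted p = 0.029), and Zfp932 with a larger change in MC38 (-3.32 ± 0.74, adjusted p = 0.015). For Adgrl2 the difference was -0.95 (adjusted p = 0.051) and for Abcg1 -1.64 (adjusted p = 0.066). The largest differences elsewhere were at sites not called with MC38. These counts moved by over 1.5 times without single libraries: 657 and 496 without 8025 PBS library 2, 1061 and 725 without 8025 PBS library 1, 946 and 781 without MC38 tumor library 3, and, for the lower count, 882 and 907 without MC38 tumor library 2 and PBS library 3. At the end of Saa1, a major acute phase protein, values were 4.69, 9.29, 5.77 and 5.66 with PBS and 9.86, 3.39, 6.91 and 4.75 with tumor (-0.07 ± 0.81), against 4.82 in 8025. Near Socs3, the inhibitor that STAT3 induces, a distal site changed by 0.73 ± 0.38 with MC38 and 4.18 in 8025, and sites near Fetub and Arap3 by 1.03 and -0.16 with MC38 and 4.59 and 4.11 in 8025. At the promoter of Hsd3b5, a steroid enzyme of male liver, MC38 gave 0.00 ± 0.43 and 8025 -3.56. Sites near Scnn1b and Atp5g3 changed by -2.21 and -3.17 in 8025 and had 1.27 ± 0.60 and 0.21 ± 0.48 with MC38, neither called.

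Against NC26, no region had a tumor effect that differed at an adjusted p under 0.05 with limma or edgeR, and DESeq2 called 13 higher and 6 lower. Without NC26 tumor library 2 limma called 9 and 3. At an unadjusted p under 0.05, 7217 regions (4.07%) were higher in the MC38 effect and 4436 (2.5%) lower, 6.57% in all. The lowest adjusted p among the 33 called regions was 0.0504, at Hmgcs1 (difference 2.21, where NC26 had -0.65 ± 0.26, SE). NC26 was in BALB/c mice, so strain and tumor line cannot be told apart in this difference.

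Beyond single calls, regions called higher in the other cohorts had MC38 changes above 0 on median. The 12386 regions called higher in 8025 cachexia had a median MC38 change of 0.25, 78.1% lay above 0, against 50.2% of all regions, and 17.4% were higher at an unadjusted p under 0.05, against 4.02%. Split into 4 groups of equal size by the 8025 change, from small to large, these regions had MC38 medians of 0.16, 0.26, 0.28 and 0.39 beside 8025 medians of 0.78, 1.17, 1.5 and 2.08. NC26 tumor medians in these groups were similar to those of MC38, at 0.14, 0.20, 0.23 and 0.31. C26 cachexia had 0.54, 0.68, 0.78 and 1.13. Regions called higher in NC26 (259), C26 pre-cachexia (1720) and C26 cachexia (12251) had MC38 medians of 0.49, 0.35 and 0.14, with 95.0%, 86.7% and 69.2% above 0. The share of each set called with MC38 was small, 0.218% of the 8025 set and 1.93% of the NC26 set. The 9537 regions called lower in 8025 had a median of -0.10, with 68.5% below 0. Regions called lower in C26 pre-cachexia (525), C26 cachexia (12634) and NC26 (71) had medians of -0.09, -0.05 and 0.00, with 62.1%, 57.6% and 50.7% below 0. Each library was then set against the PBS mean at each region. At the 8025 set the medians were 0.20, 0.31, 0.18 and 0.38 in tumor libraries 1 to 4 and 0.01, 0.00, 0.07 and -0.01 in PBS libraries. Tumor libraries 2 and 4, the highest there, also had the lowest promoter shares (33.2% and 33.6%). The part of promoter share in these medians was not tested. At the pre-cachexia set the medians were 0.10, 0.64, 0.28 and 0.37 in tumor libraries and 0.02, -0.01, -0.06 and 0.08 in PBS libraries. Over all regions tumor libraries stood at 0.01 to 0.02. The PBS libraries form the mean used here, so they lie near 0 by design.

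**Figure D3:**
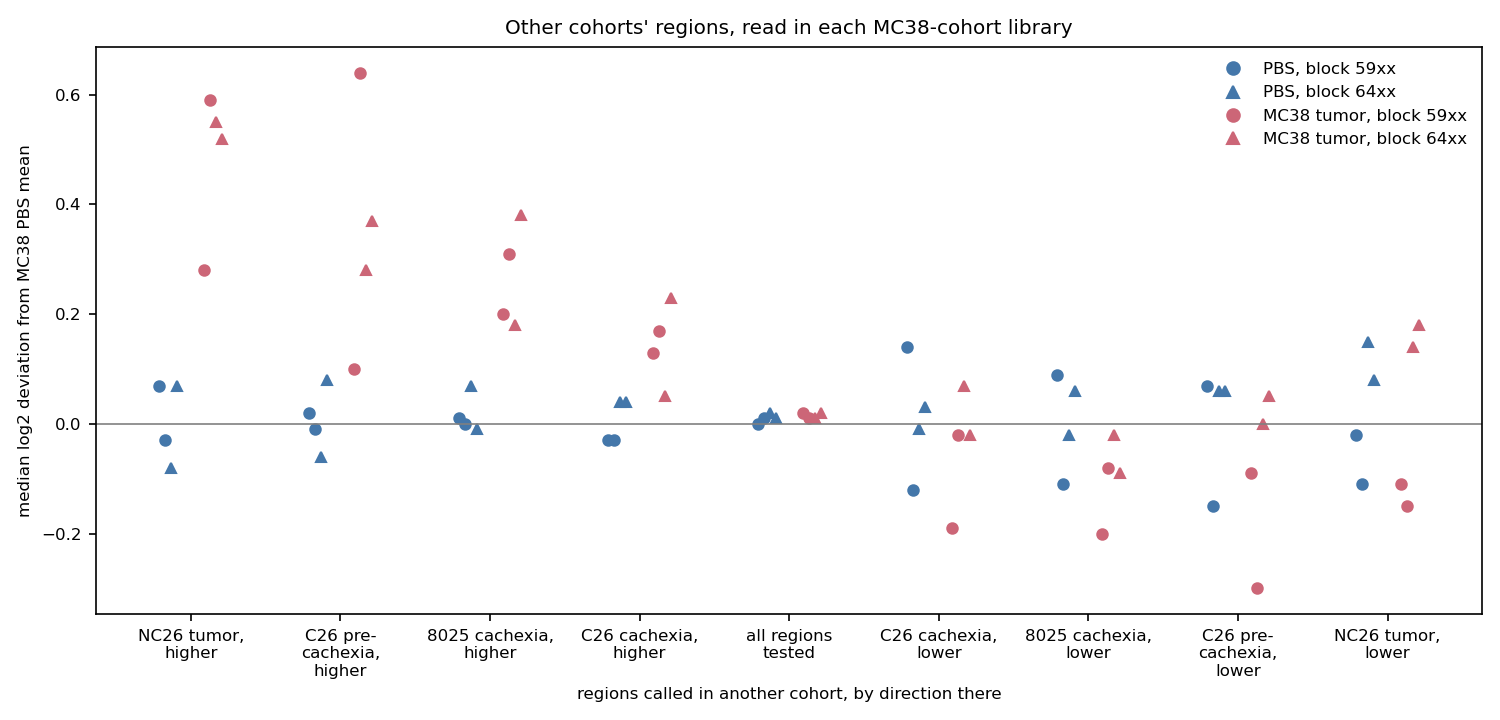
Median log2 deviation from the PBS mean in each MC38-cohort library (points, shape by library block) over regions called higher or lower in another cohort. Tumor libraries lie above the controls in the 4 sets of rises (0.18 to 0.38 against -0.01 to 0.07 for 8025 cachexia). The gap is narrow for C26 cachexia (0.05 to 0.23 against -0.03 to 0.04) and C26 pre-cachexia (0.10 to 0.64 against -0.06 to 0.08). The groups overlap in the sets of falls and over all regions.

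Chosen gene lists were read for these small shifts, counting regions within 100 kb of listed genes. The lists cover a small part of the regions tested, so they do not locate the shifts as a whole. Over all regions 4.02% were higher and 2.31% lower at an unadjusted p under 0.05. Acute phase regions had the highest median, 0.16, with 56 higher and 8 lower of 386 (14.5% and 2.07%) and 2 called. In 8025 cachexia their median was 0.46 with 152 called higher (all regions 6.99%), and in NC26 it was 0.10 with 4 (all regions 0.146%). Regions of AP-1 and immediate early genes, whose products are induced within minutes of a stimulus, had a median of 0.09, with 32 higher and 0 lower of 263, and none called. Values near Btg2, an antiproliferative early gene, were 26.6, 43.7, 34 and 41.1 with PBS and 45.2, 91.4, 76.5 and 88.2 with tumor (1.01 ± 0.26, SE, adjusted p = 0.21, limma). Regions of IL-6/STAT3 and NF-kB pathway genes had a median of 0.07, with 29 higher and 8 lower of 482, none called. Near Socs2, a feedback inhibitor of growth hormone signalling, values were 36.7 to 46.7 with PBS and 59.2 to 85.7 with tumor (0.71 ± 0.18, adjusted p = 0.2).

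Metabolic lists had medians at or below 0. Lipogenesis and glycolysis regions had a median of -0.09, with 10 higher and 30 lower of 346 and none called; their median in 8025 was -0.34 with 90 called lower (all regions 5.38%). At an intron of Mlxipl, the carbohydrate-sensing factor ChREBP, values were 9.53 to 23.1 with PBS and 5.20 to 8.50 with tumor (-0.94 ± 0.29, SE, adjusted p = 0.41, limma). Regions of this list with a lower p had higher values with tumor and did not pass. They lie near Elovl5 (0.93 ± 0.23, adjusted p = 0.2, limma) and Insig2 (0.73 ± 0.21, adjusted p = 0.34). Urea cycle and amino acid regions had a median of -0.07, with 3 higher and 32 lower of 551. At an exon of Hal, histidine ammonia-lyase, values were 13.8 to 18 with PBS and 7.14 to 10.7 with tumor (-0.84 ± 0.21, adjusted p = 0.18). The PPARalpha list stood at -0.03, with 4 higher and 14 lower of 310. The promoter of Plin2, a lipid droplet coat protein in that list, had 146 to 161 with PBS and 114 to 126 with tumor (-0.33 ± 0.10, adjusted p = 0.36). Cholesterol regions (-0.05) held 1 call, at Hmgcs1. Bile acid (-0.02), xenobiotic (-0.02), gluconeogenesis and glucocorticoid (-0.03) and hepatocyte identity (-0.02) lists held none. In the identity list a site 33.4 kb from Foxa2, a pioneer factor of liver, had 2.34, 3.27, 1.93 and 1.19 with PBS and 4.08, 10.9, 7.40 and 7.43 with tumor (1.39 ± 0.32, adjusted p = 0.13).

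Growth hormone and sex-biased genes had a median of 0.06, with 40 higher and 16 lower of 562, none called, against -0.30 and 88 called lower in 8025. The regions with its lowest p had lower values with tumor and did not pass. At 4.92 kb from the start of Mup3, a male-biased urinary protein of a family of near copies, values were 33.6, 21.9, 26.3 and 13.1 with PBS and 2.38, 5.20, 8.88 and 13.4 with tumor (-1.67 ± 0.39, SE, adjusted p = 0.14, limma; 8025 -3.26). Tumor library 4 was above PBS library 4, so the groups overlapped. A region near Car3, a male-biased carbonic anhydrase, had 21.9 to 38.1 with PBS and 10.1 to 18.7 with tumor (-0.93 ± 0.23, adjusted p = 0.18). Clock and clock output regions had a median of -0.05, with 6 higher and 10 lower of 322. At an intron of Hlf, a clock output factor, values were 26.3 to 31.2 with PBS and 12.6 to 18.3 with tumor (-0.92 ± 0.23, adjusted p = 0.2). The next regions of this list by p had higher values with tumor and did not pass. They were nearest to Nfil3 (0.90 ± 0.29, adjusted p = 0.47, limma) and Cry2 (0.45 ± 0.14, adjusted p = 0.48). Stress response (0.06), interferon (0.04), NRF2 (0.00) and cell cycle (0.01) lists held no call. Marker lists of macrophages (0.01), endothelium (0.04), stellate cells (-0.04), cholangiocytes (0.01), lymphocytes (0.10, 25 regions) and neutrophils (0.15, 27 regions) had no region called, nor did hepatocyte markers (0.07).

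**Figure D4:**
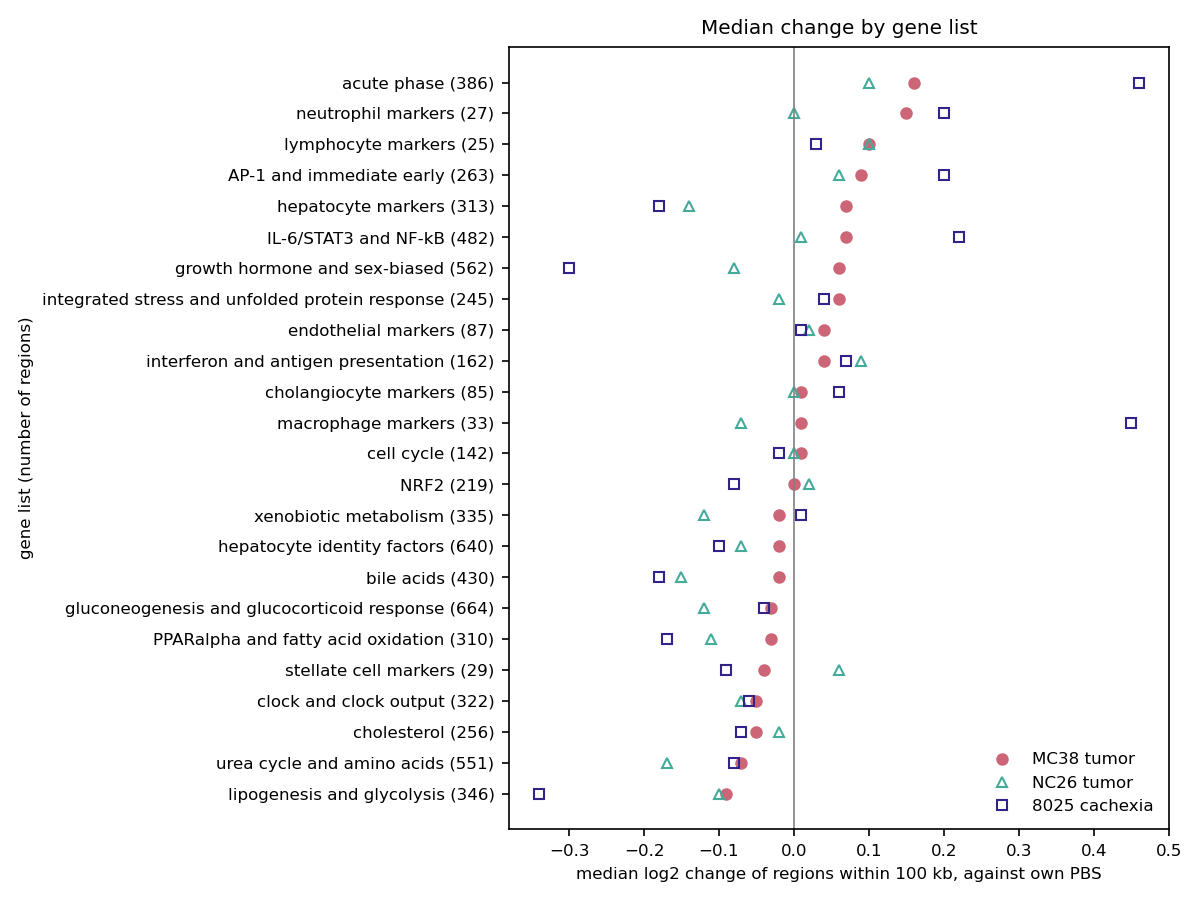
Median log2 change of regions within 100 kb of each list's genes (number of regions in parentheses) for MC38 tumor, NC26 tumor and 8025 cachexia against own PBS libraries. MC38 medians run from -0.09 (lipogenesis and glycolysis) to 0.16 (acute phase), and 8025 medians reach 0.46 and -0.34 in these lists.

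None of 36 chosen promoters was called with MC38. The clock promoters Nr1d1, Nr1d2, Per1, Per2, Dbp and Arntl differed by -0.03 to 0.01, each with an SE of 0.06 to 0.12. Acute phase promoters that were called in 8025 had small values here, 0.34 ± 0.42 at Saa1 (8025 2.53), 0.47 ± 0.21 at Lcn2 (2.39), 0.40 ± 0.39 at the metallothionein Mt2 (3.75) and 0.02 ± 0.11 at Lbp (0.74). The 8025 effect was larger in the direct test at Lcn2 (1.91 ± 0.32), Mt2 (3.36 ± 0.57) and Lbp (0.72 ± 0.16), and stronger in the negative direction at Mup3 (-1.97 ± 0.34). In 4 promoters the groups did not overlap, against 3.47% of all regions. Irf1, a transcription factor of the interferon response, had 96.3, 76.5, 83.0 and 93.4 scaled tags with PBS and 102, 126, 143 and 108 with tumor (0.44 ± 0.11, SE, unadjusted p = 0.00035, adjusted p = 0.22, limma). Itih3, an acute phase hyaluronan-binding protein, had 74.4, 86.4, 70.5 and 94.3 with PBS and 97.6, 111, 118 and 110 with tumor (0.42 ± 0.16, adjusted p = 0.62). Fgl1, a hepatocyte secreted factor, had 19.8, 25.1, 31.1 and 30.1 against 31.6, 54.3, 40.4 and 46.1 (0.68 ± 0.25, adjusted p = 0.6), and Mup3 had 71.8, 73.8, 75.0 and 72.9 against 47.3, 41.2, 62.4 and 59.1 (-0.49 ± 0.23, adjusted p = 0.76). In 8025 the changes at Irf1, Itih3, Fgl1 and Mup3 were 0.55, 0.79, 1.14 and -2.47.

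The promoters of Irf1, Itih3 and Mup3 are shown because their windows separated the groups. They are 300 bases from RefSeq (GRCm38.p6), 250 before to 50 after the start: Irf1 on chromosome 11, 53769764 to 53770063, plus strand, Itih3 on chromosome 14, 30923538 to 30923837, minus strand, and Mup3 on chromosome 4, 62087268 to 62087567, minus strand. Both strands were searched for TTCNNNGAA (STAT), TGANTCA (AP-1), TTGCNNAAT (C/EBP) and the NF-kB letters GGGA, any 4 bases, then CC; matches of different motifs do not overlap in these promoters. Of 32851 RefSeq promoters 8.3%, 7.81%, 2.4% and 20.7% hold them. Capitals mark the matches: in Irf1 the STAT letters at bases 161 to 169, counted from the first base shown, and the NF-kB letters at 238 to 247. Itih3 and Mup3 held no match in this window. Irf1 has 69.3% G and C with 32 CpG, Itih3 57.0% with 3 and Mup3 41% with 2.

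Irf1: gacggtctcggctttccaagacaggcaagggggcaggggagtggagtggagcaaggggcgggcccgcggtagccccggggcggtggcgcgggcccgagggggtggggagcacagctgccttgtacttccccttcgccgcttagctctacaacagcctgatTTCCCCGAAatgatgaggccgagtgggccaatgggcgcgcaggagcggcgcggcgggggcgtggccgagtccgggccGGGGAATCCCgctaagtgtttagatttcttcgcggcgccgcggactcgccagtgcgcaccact

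Itih3: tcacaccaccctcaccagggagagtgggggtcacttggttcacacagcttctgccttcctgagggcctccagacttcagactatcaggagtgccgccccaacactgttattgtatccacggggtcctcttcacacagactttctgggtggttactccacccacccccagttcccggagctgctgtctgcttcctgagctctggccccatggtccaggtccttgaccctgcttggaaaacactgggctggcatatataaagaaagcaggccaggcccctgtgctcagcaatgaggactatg

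Mup3: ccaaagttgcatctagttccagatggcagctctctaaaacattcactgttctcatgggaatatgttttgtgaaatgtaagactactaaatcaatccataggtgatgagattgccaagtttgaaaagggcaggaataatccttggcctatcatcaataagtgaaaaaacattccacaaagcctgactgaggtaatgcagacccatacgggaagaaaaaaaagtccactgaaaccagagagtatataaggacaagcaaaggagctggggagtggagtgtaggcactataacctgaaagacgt

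**Figure D5:**
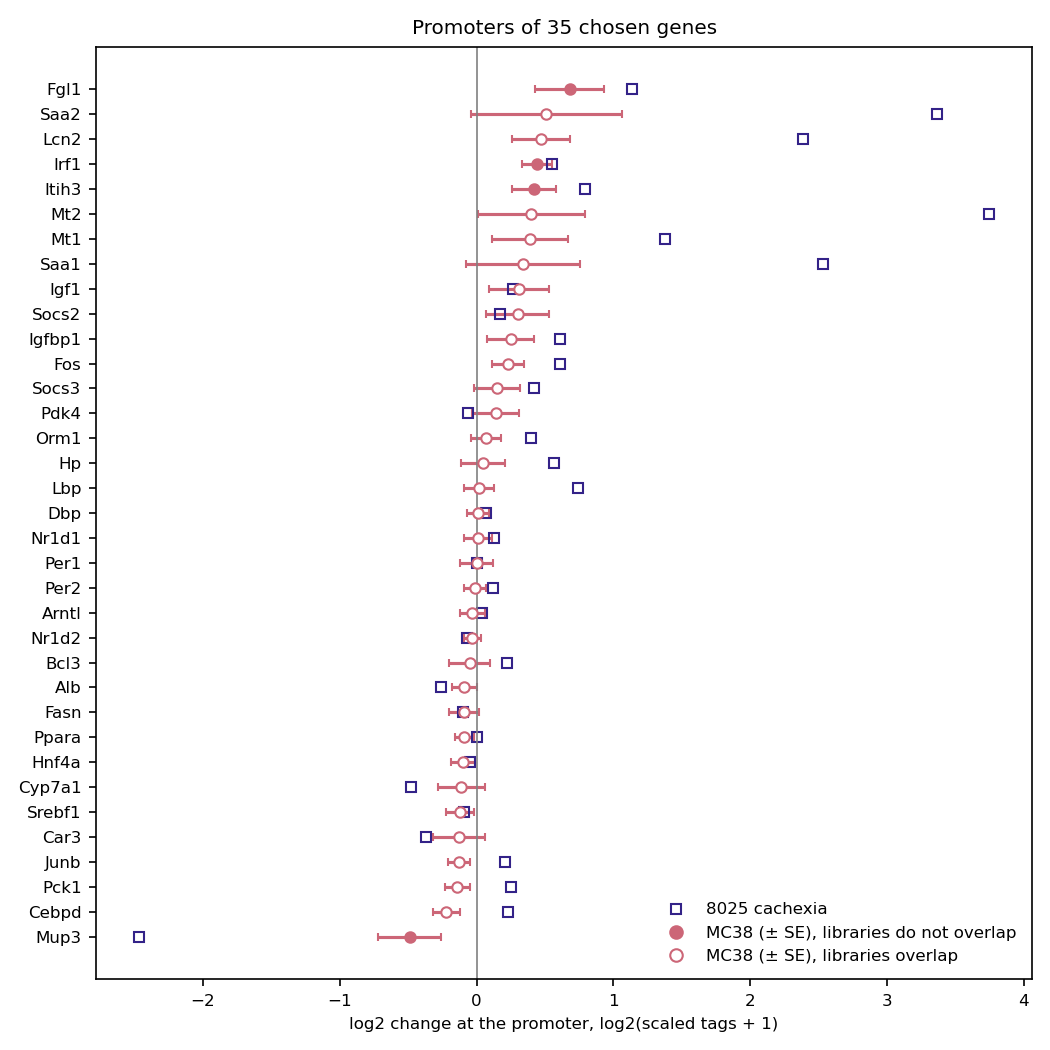
Log2 change (± SE) at the promoters of 35 of the 36 chosen genes with MC38 tumor, filled where the 4 tumor and 4 PBS libraries do not overlap, and the change in 8025 cachexia (squares). MC38 values lie between -0.49 (Mup3) and 0.68 (Fgl1), while in 8025 they reach 3.75 (Mt2) and -2.47 (Mup3).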

How the data were processed

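ATAC-seq libraries of INTACT-purified hepatocyte nuclei (about 25000 nuclei, 12 PCR cycles, paired ends, per the labels' protocols) were analysed. Reads were aligned to mm10 with BWA 0.7.5a-r405, per the submitters' processing notes, which also name SAMtools and HOMER. No source used here gives how duplicates were treated or peaks called. Each deposited signal value counts tags in 400 bp around a merged peak and, per the file headers, was brought to a common library size of 10 M by the authors. They convert to whole read ends in 100% of values (tolerance 0.05), on which edgeR and DESeq2 were run as alternatives, calling 36 higher and 1 lower, and 222 and 29.

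NC26 tumor library 1 was shallow, at 3.47 M tags, and the other 34 held 11.3 to 23.8 M. After TMM scaling, log2(value + 1) was tested with limma (trend and robust options). It held all 35 libraries, 9 groups and a term for the library number block (59xx or 64xx, both present in each MC38 group, 2 libraries each). filterByExpr (minimum 10, total 15) removed 653 regions. p-values were adjusted by Benjamini-Hochberg over all regions tested. They measure the spread between animals.

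Gene names are those of the nearest start in the authors' annotation; host and nearest coding genes come from RefSeq (GRCm38.p6). Named were the 12 largest rises and the falls by p among regions at or above median signal, without overlap, 1 per gene and without predicted or small RNA genes. Every other called region is named too, as are 3 lowest-p regions per list where shown, 36 promoters and, for differences between cohorts, 4 in each direction. Members and lists were chosen with earlier results of these data known. Versions were DESeq2 1.42.0, edgeR 4.0.16, limma 3.58.1, R 4.3.3, scipy 1.17.1 and Python 3.11.15. The code was tested on simulated data. A few results are not reported here.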

Additional observations from a re-analysis of the deposited data

Results flagged for a closer look

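In 16 of 292 groups of 4 libraries examined, 1 library stood far from the other 3 by Dixon's criterion, which chance gives in about 5% of groups; 15 of them are given here. Among called regions these were PBS library 3 at both Mir1839 windows (23.7 and 18.3 scaled tags) and at the Clvs1 window at 157 kb (31.4), PBS library 4 at Zfp932 (9.53, the others at 0) and tumor library 4 at Lnx1 (58.2). Tumor library 3 was high at the Mt2 promoter (76.0) and the A2m region (63.4). Tumor library 1 was high at the Nr1d1 promoter (247) and a Ly6g region (14.3), tumor library 2 at Gstm1 (60.8) and Aldh1a1 (21.7), and tumor library 4 at Ttr (14.0) and low at the Bcl3 promoter (44.6). PBS library 1 was low at Fasn (216) and PBS library 3 high at Cd2 (10.2).

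At 18 named regions the 8025 cachexia effect differed from the MC38 effect in the interaction test (limma, adjusted p under 0.05). It was higher in 8025 at Saa1 (4.89), Arap3 (4.27), Fetub (3.56), Socs3 (3.45), Mt2 (3.36), Gm19510 (2.0), Lcn2 (1.91), Insig2 (1.69), A2m (1.09), Apcs (0.92) and Lbp (0.72). It was lower at Hsd3b5 (-3.56), Scnn1b (-3.48), Atp5g3 (-3.38), Zfp932 (-3.32), Mup3 (-1.97), Car3 (-1.44) and Elovl5 (-1.28). Near Elovl5, a fatty acid elongase, scaled tags were 7.65 to 13.4 with PBS and 18.4 to 22.8 with MC38 tumor, not called (0.93 ± 0.23, SE, adjusted p = 0.2), and the 8025 change was -0.35. The regions were chosen for their MC38 or 8025 values, so their number describes the choice.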

How the results depend on the processing

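The 32 rises and 1 fall became 11 and 0 with the 8 MC38 libraries alone (6 of the 33 kept), 11 and 1 with the promoter share as covariate (12 kept), 0 and 0 within the 59xx libraries (4257 and 1755 at an unadjusted p under 0.05), 40 and 1 within the 64xx libraries (5 kept), and 222 and 29 with DESeq2 (32 kept). Falls were 0 with library totals and 3 with array weights or a pseudocount of 5. Leaving out 1 library gave 8 to 63 rises and 0 to 3 falls. Within the 59xx and 64xx libraries all 33 kept their sign, with medians of 1.52 and 1.42 over the 32 rises. Over all results for single regions, 345 alternatives ended a call and 29 gave a new one, 17 of them by DESeq2; no sign of a called region turned.

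For the replicate block, same-numbered libraries did not deviate together (correlations -0.16 to 0.02, and 0 of 4 PBS libraries correlated best with their own number). These correlations cannot tell whether animals were matched by number, and same-numbered PBS and tumor libraries have adjacent library numbers. The block gave 45 rises and 1 fall with all libraries (28 of the 33 kept) and 27 and 0 with the 8 alone (8 kept). It gave 1127 and 968 for the difference of the 8025 and MC38 effects.

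That difference, 1635 higher and 1380 lower, was 2916 higher with a pseudocount of 5, 2583 and 2180 with array weights, 2973 and 2996 with DESeq2 and 706 lower with library totals, and 657 to 2051 and 496 to 1818 with 1 library left out. The difference from NC26, 0 and 0, became 1 and 0 with RLE factors or no filter, 1 and 2 with loess offsets, a pseudocount of 5 or no library block, 13 and 6 with DESeq2, and 0 to 9 and 0 to 3 with 1 library left out. The cause was not tested. Within a library number block each MC38 group has 2 animals, which limits those fits.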
